A study of Caenorhabditis elegans with 12 samples.

Results

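Loss of mir-81 and mir-82 was examined in Caenorhabditis elegans that already lacked mir-80 and mir-58, by setting the quadruple mutant (mir-80; mir-58; mir-81-82) against the double mutant (mir-80; mir-58). These genotypes account for 6 of the 12 samples of the study, 3 each, and all 16309 listed genes were used. RNA was sequenced from whole animals at the late L4 stage. The double mutant, strain MT18409, carries nDf53 III and mir-58(n4640) IV. The quadruple mutant, strain MT15563, carries the same alleles and nDf54 X. Wild type was N2 Bristol, and the mir-58 single mutant, used below for a side comparison, was strain MT15024 with mir-58(n4640) IV. All groups were fed light-isotope-labelled bacteria. Wild type and mir-58 were harvested 33 h after the larvae were plated, the double mutant 6 h later than these and the quadruple mutant 15 h later. The quadruple mutant was thus collected 9 h later than the double mutant, at a stage matched by the shape of the vulva, and in this comparison the added deletion and the time of collection cannot be told apart. The same holds for genotype and time of collection where either of these mutants is set against wild type. Each genotype is 1 strain, and the labels do not say whether its 3 samples came from separate cultures.

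MicroRNAs are short RNAs that pair with messenger RNAs through a seed at their 5′ end and lower their translation or stability. The mir-58, mir-80, mir-81 and mir-82 products belong to the miR-58 family, which is abundant in the worm and whose members have the same seed, so that loss of 1 member can be covered by others. Known targets of the family include receptors of the TGF-beta pathways that set body size and control dauer entry, and the p38 kinase gene pmk-2.

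The authors' deposited table sets each mutant against wild type and lists, gene by gene, the log2 fold change with its adjusted p-value. The value used here is the log2 fold change of the quadruple mutant minus that of the double mutant, called the difference below. The wild type cancels in it, a difference of 1 is a 2-fold higher level in the quadruple mutant, and it has no error and no test, because values per sample were not analysed here. A gene is said to rise or fall in a mutant only where the authors' deposited table gives it an adjusted p under 0.05 against wild type, and such a p never refers to the difference. The double and the quadruple comparison share the same wild-type samples, and where a pair of values is given for a gene the double mutant comes first. Depth per sample and the spread between replicates are unknown, so differences that rest on few reads cannot be separated from those that rest on many.

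Most genes stood at nearly the same level in both mutants. The median difference over the 16309 genes was 0.00, with quartiles of -0.17 and 0.20, an SD across genes of 0.498 and extremes of -6.11 and 5.65. A 2-fold or larger difference was found for 612 genes that were higher in the quadruple mutant (3.75%) and 345 that were lower (2.12%), together 5.87% of all genes. In all, 7923 genes lay above 0 (48.6%) and 8120 below 0 (49.8%). The preceding genotype step, from mir-58 to the double mutant, was wider, with an SD across genes of 1.541, 2276 genes at least 2-fold higher (14.0%) and 663 at least 2-fold lower (4.07%). Both steps use the double mutant samples, and the difference between their widths was not tested. The plot of the double against the quadruple mutant shows this narrow band with a small number of genes far from it.

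**Figure D1:**
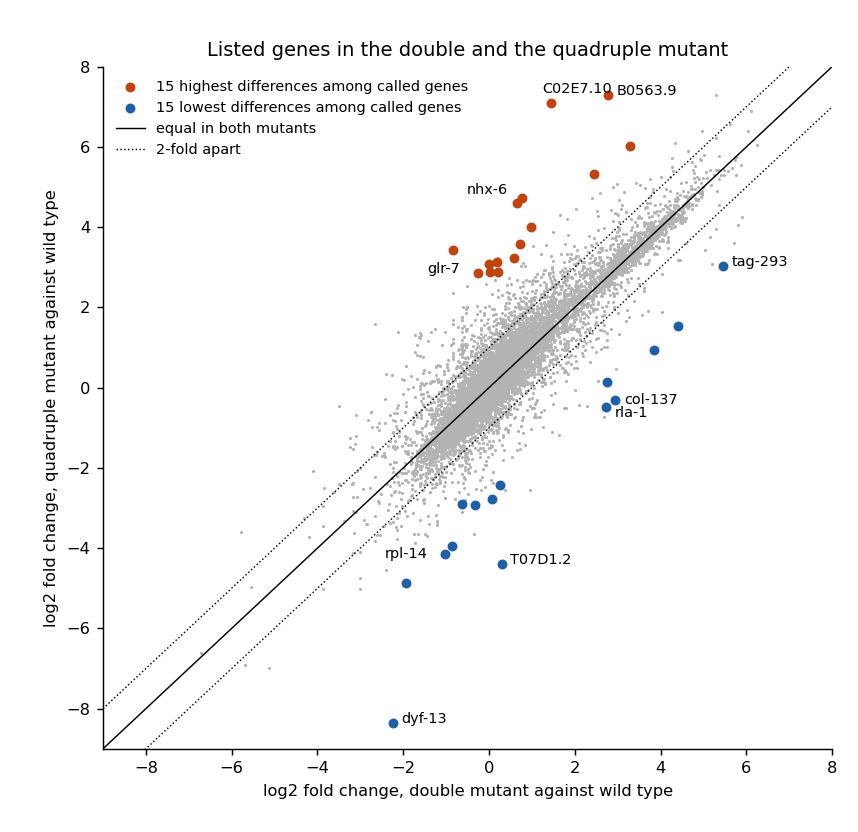
Log2 fold change against wild type in the double (x axis) and the quadruple mutant (y axis) for the 16309 genes of the authors' deposited table. The solid line marks equal values, the dotted lines a 2-fold difference, and the coloured points the 15 highest and 15 lowest differences among genes with an adjusted p under 0.05 in either mutant; dyf-13 (-6.11) and C02E7.10 (5.65) lie farthest from the line.

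Genes past 2-fold were more often without a call than with one. An adjusted p under 0.05 in the double or the quadruple mutant was given for 4102 genes (25.2% of all), for 210 of the 612 higher genes (34.3%) and for 136 of the 345 lower genes (39.4%). Against wild type, 10.5% of genes rose and 5.86% fell in the double mutant, and 14.2% rose and 9.82% fell in the quadruple mutant. The genes past 2-fold were shorter than the rest, with a median exonic length of 1035 bases for the higher and 1043 bases for the lower genes against 1308.5 bases for all genes with an annotated length. By chromosome, the share past 2-fold was 10.5% on V, between 4.99% and 5.76% on II, IV and X, 3.49% on I and 2.87% on III. Chromosome V is known for large families of chemoreceptor genes.

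The mir-58 single mutant shares no sample with the difference. Of the 269 genes that rose in mir-58 against wild type per the authors' deposited table, 188 lay above 0 in the difference, with a median of 0.21, and their median log2 fold change was 0.85 in the double mutant and 1.08 in the quadruple one. Of the 945 genes that fell in mir-58 per the authors' deposited table, 647 lay below 0, with a median of -0.09, but their median log2 fold change was 0.61 in the double mutant and 0.53 in the quadruple one, above wild type in both. This split was chosen after the values were seen, genes are not independent replicates, and no test was made.

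The deleted loci were read through the genes around them, since the microRNAs are not among the listed genes. Both mir-81 and mir-82 are annotated in introns of T07D1.2 (annotated as gid-2) on the X chromosome, mir-82 on the strand of the gene and mir-81 on the opposite strand. T07D1.2 stood at 0.29 in the double but -4.39 in the quadruple mutant per the authors' deposited table (adjusted p = 1.36e-22 in the quadruple mutant), a difference of -4.68. Among all genes only dyf-13 had a lower difference. The neighbour on 1 side, the glutamate receptor subunit gene glr-7, stood at -0.25 in the double but 2.85 in the quadruple mutant per the authors' deposited table (adjusted p = 1.37e-04 in the latter), a difference of 3.10. The next genes differed little, with 0.02 for C43H6.1 and 0.10 for C43H6.3 beyond glr-7, and -0.06 for T07D1.3, -0.07 for fox-1 (an RNA-binding protein gene of sex determination) and 0.55 for R04B3.1 on the other side. Of the 20 nearest listed genes, 10 on each side, the 19 other than glr-7 ranged from -1.04 to 0.55 with a median of 0.03, the lowest being asnA-2. The large values at the nDf54 locus were thus those of T07D1.2 and glr-7. Loss of mir-81 and mir-82 therefore cannot be told apart from the changes in these protein-coding genes in this comparison.

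**Figure D2:**
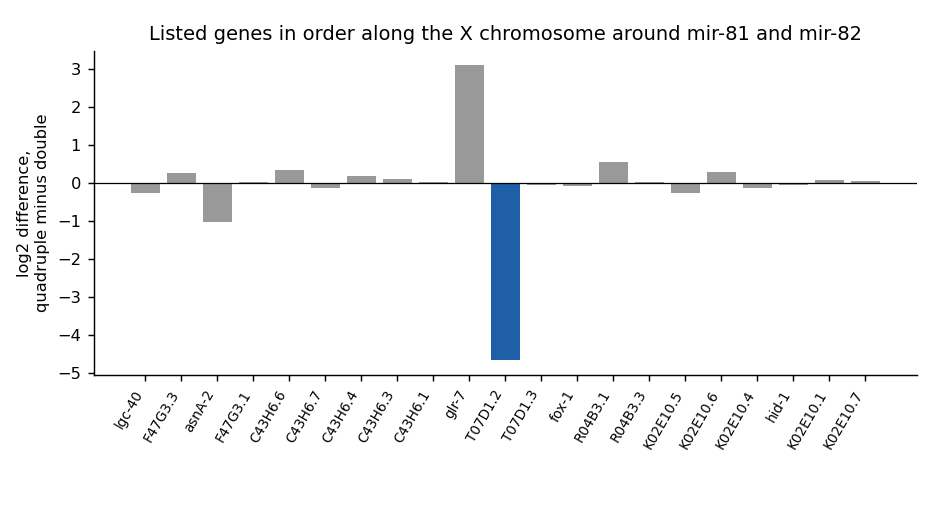
Difference between quadruple and double mutant (y axis, log2) for T07D1.2, which contains mir-81 and mir-82 (blue), and the 10 nearest listed genes on each side in their order along the X chromosome (grey). T07D1.2 stands at -4.68 and glr-7 at 3.10, while the other genes lie between -1.04 and 0.55.

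The mir-58 and mir-80 loci are altered in both mutants. Y67D8A.2, which holds mir-58 in an intron on the same strand on chromosome IV, stood at 0.20 and -0.18 in the double and quadruple mutant per the authors' deposited table, with a call in neither. No annotated protein-coding gene contains mir-80.

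Reported targets of the family were next compared, since the series sets out to follow targets of the family across the mutants. Of 7 genes on the list, 6 were listed in the table, and 5 of these were above 0, with a median difference of 0.23. The p38 kinase gene pmk-2 stood at 1.2 in the double (adjusted p = 7.34e-04) and 2.26 in the quadruple mutant (adjusted p = 2.14e-14) per the authors' deposited table. Its difference of 1.06 was the only one past 2-fold among the targets, and 3.16% of all genes had a higher one. The type I receptor gene sma-6 of the body size pathway stood at 1.46 (adjusted p = 5.43e-07) and 2.14 (adjusted p = 7.13e-15) per the authors' deposited table, a difference of 0.68. For daf-4, the type II receptor gene used by both TGF-beta pathways, the authors' deposited table gave 0.47 (adjusted p = 0.212) and 0.73 (adjusted p = 0.0207), a difference of 0.26. The other 3 targets differed by 0.21 or less in either direction. These were dbl-1, the body size ligand gene (0.21), daf-1, the type I receptor gene of the dauer pathway (0.07), and cbp-1, a histone acetyltransferase gene (-0.16), and none was called in either mutant. The plot of the targets across genotypes shows pmk-2 and sma-6 apart from the other 4.

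**Figure D3:**
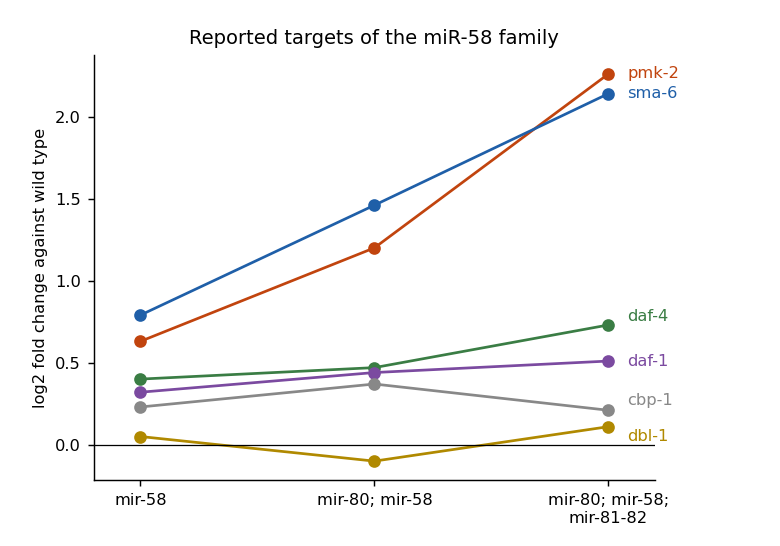
Log2 fold change against wild type (y axis) of the 6 listed reported targets in mir-58, the double and the quadruple mutant (x axis), from the authors' deposited table, all compared with the same wild-type samples. From the double to the quadruple mutant pmk-2 goes from 1.2 to 2.26 and sma-6 from 1.46 to 2.14, while the other 4 move by 0.26 or less.

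Other genes of both pathways were compared in the same way. Of 22 listed TGF-beta genes, 16 lay above 0, the median was 0.16 and none passed 2-fold, and the number that rose against wild type was 2 in the double, compared with 7 in the quadruple mutant. Both counts include sma-6. The highest values after sma-6 belonged to drag-1 (listed as Y71G12B.16), which encodes a co-receptor of the body size pathway (0.62), and to the Smad gene sma-2 (0.56). Per the authors' deposited table sma-2 stood at 0.25 and 0.81 (adjusted p = 0.0429 in the quadruple mutant), and drag-1 at 0.07 and 0.69 without a call. The gene sma-1, which acts in shaping the embryo, followed at 0.49, and the Smad gene sma-4 at 0.32. Lowest were lon-1, a gene that the body size pathway represses (-0.39), and the dauer ligand gene daf-7 (-0.27). Of 14 listed p38 pathway genes only pmk-2 was past 2-fold, and the median was -0.04. The kinase genes pmk-1 and pmk-3, which lie in an operon with pmk-2, differed by 0.13 and 0.19, and the other 11 genes by -0.21 to 0.13.

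Body wall muscle and energy metabolism genes stood slightly lower in the quadruple than in the double mutant, nearly throughout their lists. Of 42 body wall muscle genes 39 lay below 0, with a median difference of -0.34, and none passed 2-fold. The number that fell against wild type was 8 in the double, compared with 23 in the quadruple mutant. Over all genes the shares that fell were 5.86% and 9.82%. The troponin T gene tnt-2 stood at -0.91 and -1.77 per the authors' deposited table (adjusted p = 9.32e-03 in the double, then 5.76e-08 in the quadruple mutant). The myosin heavy chain gene unc-54 stood at -0.60 and -1.43 per the authors' deposited table (adjusted p = 0.526, then 0.0302). Other thick filament genes had smaller differences, -0.63 for the myosin light chain gene mlc-1 and -0.57 for the paramyosin gene unc-15. The titin-like gene ttn-1 lay on the other side, at 0.29. The list of 11 pharyngeal muscle genes had a median of -0.07, with 7 below 0. RNA came from whole animals, so fewer cells of a type and less RNA per cell cannot be told apart.

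Genes of mitochondrial and carbohydrate metabolism gave a like picture. All 13 listed genes of propionate breakdown were below 0, with a median of -0.31 and a range of -0.50 to -0.18, and the number that fell against wild type was 6 in the double, compared with 11 in the quadruple mutant. They include hach-1 (listed as F09F7.4), of the vitamin B12-independent shunt (-0.50), and pcca-1, a propionyl-CoA carboxylase subunit gene of the B12-dependent route (-0.50). Of 34 respiratory chain and ATP synthase genes 33 were below 0, with a median of -0.23, and the number that fell was 3 in the double, compared with 21 in the quadruple mutant. Among them the succinate dehydrogenase gene sdha-1 stood at -0.56 and -1.01 per the authors' deposited table (adjusted p = 0.101, then 7.33e-04). The complex I gene gas-1 stood at -0.51 and -0.92 per the authors' deposited table (adjusted p = 0.126, then 1.36e-03). The exception was cyc-2.2 at 0.17, 1 of the 2 cytochrome c genes, which stood at 2.93 and 3.10 per the authors' deposited table. Of 22 glycolysis, gluconeogenesis and glyoxylate genes 20 were below 0, with a median of -0.28, and the number that fell was 0 in the double, compared with 6 in the quadruple mutant. The lowest was the phosphoenolpyruvate carboxykinase gene pck-1 (listed as W05G11.6) at -0.75. The vacuolar proton pump list had 19 of 20 genes below 0 but a smaller median of -0.14. Of the 35 intestinal genes on the marker list 15 were below 0 and 18 above, with a median of 0.01. They ranged from -1.11 to 0.56, and the part of intestinal tissue in the values of the metabolic lists was not tested.

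**Figure D4:**
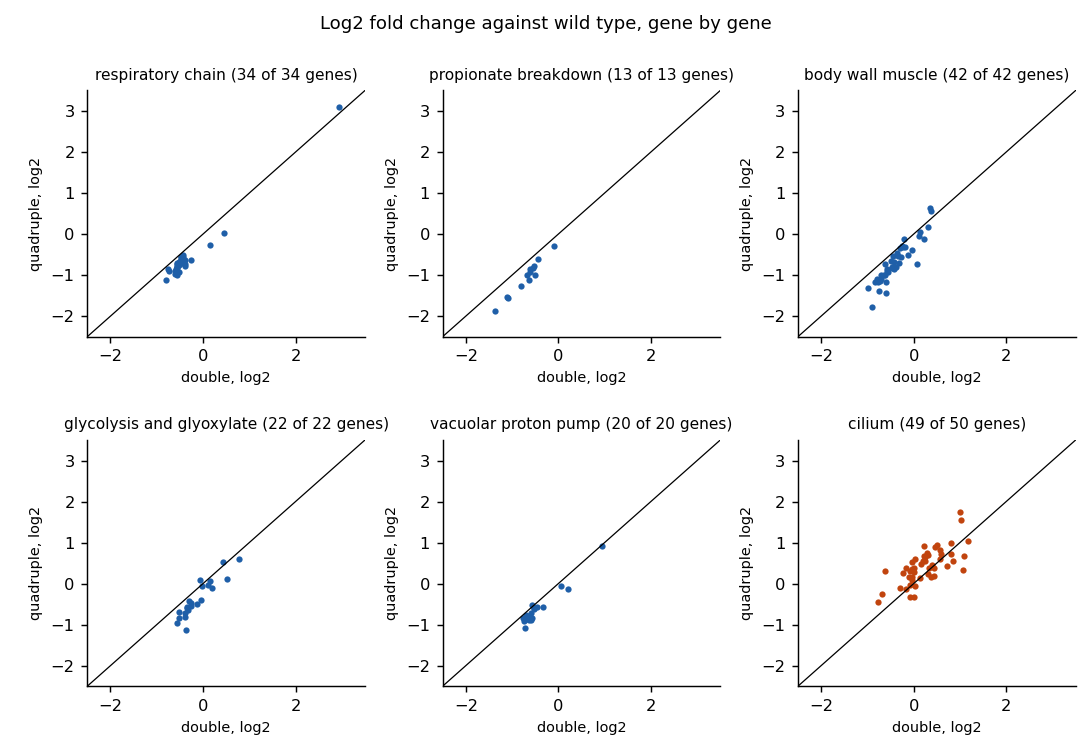
Log2 fold change against wild type in the double (x axes) and the quadruple mutant (y axes) for the genes of 6 lists, from the authors' deposited table; the line marks equal values. Points of the first 5 lists lie mostly just below the line, those of the cilium list mostly above it, and 1 of its 50 genes, dyf-13, lies outside the plotted range.

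Fat metabolism held larger single differences. Of 33 fatty acid breakdown genes 25 were below 0, with a median of -0.24, 4 at least 2-fold lower and 1 at least 2-fold higher. The acyl-CoA synthetase gene acs-2, a target of the nuclear receptor NHR-49, stood at -2.15 and -3.77 per the authors' deposited table (adjusted p = 6.84e-16, then 5.16e-35), a difference of -1.62. The acyl-CoA dehydrogenase gene acdh-2 stood at -0.50 and -2.02 per the authors' deposited table (adjusted p = 0.116, then 1.34e-13). The hydratase gene ech-9 (-1.5) and the acyl-CoA oxidase gene F08A8.2 (-1.1) were the others past 2-fold, and cpt-3, a carnitine palmitoyltransferase gene, was the exception at 1.01. Of 28 fatty acid synthesis genes 21 were below 0, with a median of -0.09. The stearoyl-CoA desaturase gene fat-7 stood at -1.68 and -2.77 per the authors' deposited table (adjusted p = 4.66e-09, then 1.09e-18), a difference of -1.09. The triglyceride synthesis gene dgat-2 (listed as F59A1.10) differed by -0.85, while fat-5, which encodes another desaturase, differed by 0.28. Of 21 methionine cycle and phosphatidylcholine genes 15 were below 0, with a median of -0.10. They include the S-adenosylhomocysteine hydrolase gene ahcy-1 (listed as K02F2.2, -0.68), the phosphoethanolamine methyltransferase gene pmt-2 (-0.47) and the S-adenosylmethionine synthetase gene sams-1 (-0.41). The 1 member past 2-fold was on the other side, the cystathionine gamma-lyase gene cth-1 (listed as F22B8.6), which stood at 1.4 and 2.46 per the authors' deposited table (adjusted p = 4.46e-06, then 1.09e-18). The 7 lysosomal lipase genes had a median of 0.15, with 3 below 0, and lipl-2 was the highest at 1.14. Of 26 iron and metal genes 15 were below 0 and 11 above, with a median of -0.07. The lowest were hrg-7 (listed as C15C8.3) at -1.36 and the haem transporter gene hrg-1 at -1.11, while the metallothionein gene mtl-2 (0.56) and the ferritin gene ftn-1 (0.46) were above 0.

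Most collagen genes were lower in the quadruple mutant, with large differences in both directions. The adult cuticle list had 14 of 15 genes below 0, with a median of -0.34, and 3 genes were at least 2-fold lower. Most of these genes still rose against wild type in the quadruple mutant, 11 of the 15, compared with 13 in the double mutant. Over all genes 14.2% rose in the quadruple and 10.5% in the double mutant. The adult collagen gene col-19 stood at 4.03 and 2.84 per the authors' deposited table (adjusted p = 5.88e-22, then 3.35e-08). The value of col-7 was 5.20 in the double (adjusted p = 2.57e-04) and 3.07 in the quadruple mutant (adjusted p = 0.134) per the authors' deposited table. Across 147 cuticle collagens 109 were below 0, with a median of -0.19, 17 at least 2-fold lower and 3 at least 2-fold higher. The lowest, col-137, stood at 2.94 (adjusted p = 1.38e-07) and -0.30 (adjusted p = 0.849) per the authors' deposited table, a difference of -3.24. The 3 at the other end, chosen after their values were seen, were col-116 (2.76), col-35 (2.73) and col-143 (2.16). The list of 45 cuticlin and other apical matrix genes was mixed, with 26 below 0, 19 above and a median of -0.05. Its lowest member, the cuticlin gene cut-1, whose product builds lateral ridges of the cuticle, stood at -1.94 and -4.87 per the authors' deposited table (adjusted p = 0.0404, then 2.24e-05). Among 43 moulting genes 30 were below 0, with a median of -0.11 and none past 2-fold. Collagen genes are close copies, and reads of one could have been given to another.

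Sperm genes stood far above wild type in both mutants, and sperm, oocyte and germline genes were nearly level between them. The 31 sperm genes had a median of 3.42 in the double mutant and 3.32 in the quadruple one per the authors' deposited table and a median difference of -0.13, with none past 2-fold. All 16 listed major sperm protein genes rose in both mutants, with medians of 4.55 and 4.43 per the authors' deposited table and a median difference of -0.09. These genes too are close copies. For 35 oocyte and eggshell genes the median difference was -0.08, and for 49 germline genes -0.10. The exceptions in the eggshell list were the adjacent genes perm-2 (listed as C44B12.1) and perm-4 (C44B12.5), which encode proteins of the eggshell's permeability barrier. Per the authors' deposited table perm-2 stood at 3.02 and 1.34 (adjusted p = 2.31e-10 and 0.0605) and perm-4 at 3.22 and 1.94 (adjusted p = 1.90e-20 and 8.71e-06). The yolk genes were split. The vitellogenin gene vit-3 stood at 2.50 (adjusted p = 1.79e-03) and 0.89 (adjusted p = 0.509) per the authors' deposited table, and vit-4 differed by -1.47 without a call. By contrast vit-6 differed by 0.39 and vit-2 by 0.14, and both rose in each mutant.

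Markers of most other tissues and of developmental timing also had median differences close to 0. The medians were -0.01 for 52 neuronal genes, 0.00 for 23 hypodermal and seam genes, -0.04 for 21 vulval genes, -0.03 for 21 heterochronic genes and 0.01 for 7 genes of the early embryo. No gene of these 5 lists passed 2-fold. The microRNA machinery list, 28 genes, had a median of -0.04 and none past 2-fold. The plot of all gene lists orders them by their median.

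**Figure D5:**
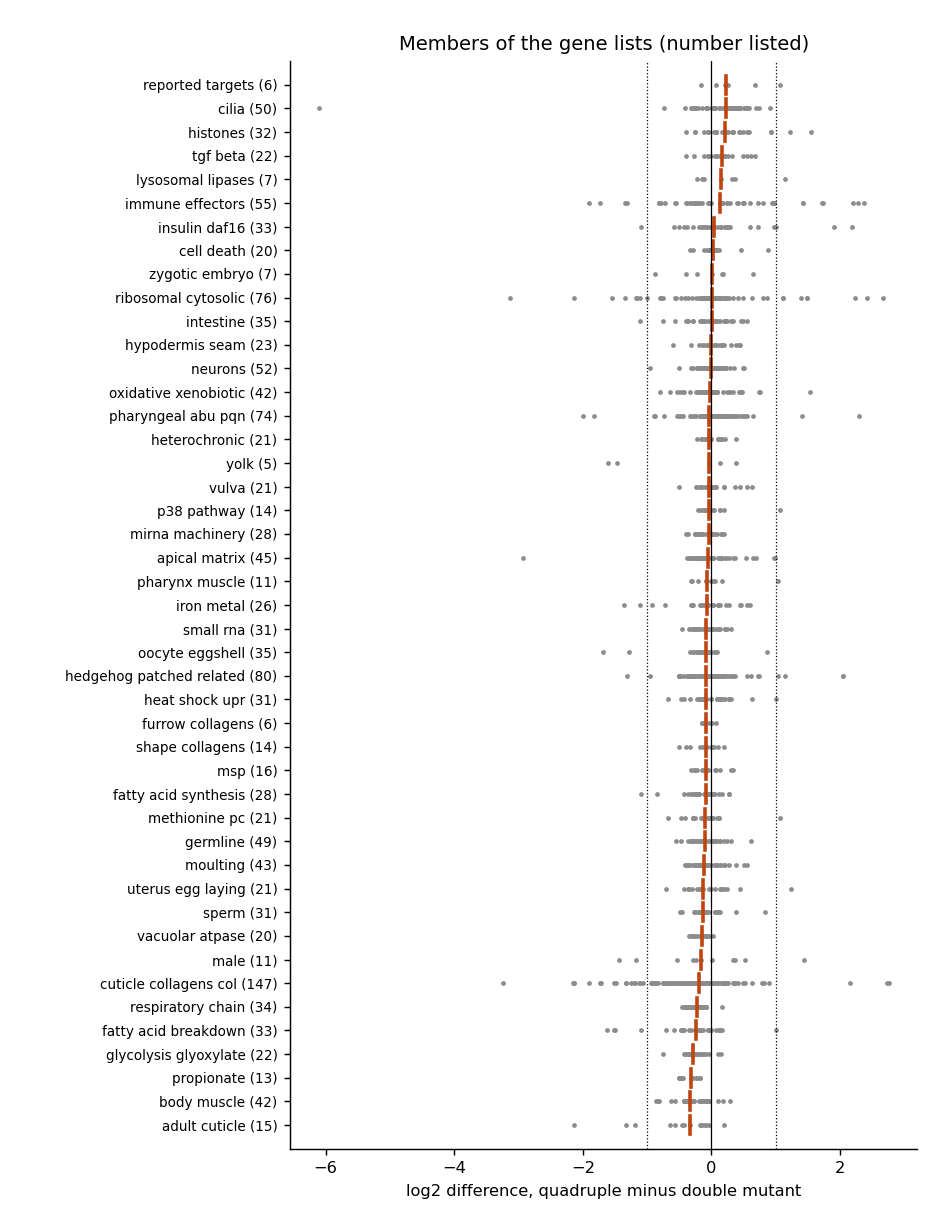
Difference between quadruple and double mutant (x axis, log2) for each listed member of the 45 gene lists, ordered by list median (red bar), with the number of listed members in brackets; dotted lines mark 2-fold. Medians run from -0.34 for body wall muscle and adult cuticle to 0.23 for cilium genes and reported targets, 33 lists lie below 0 and 11 above.

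Cilium genes had, with the reported targets, the highest median of the lists and also held the lowest single gene. Of 50 genes 35 were above 0, with a median of 0.23. The gene che-11, of intraflagellar transport, stood at 1.00 (adjusted p = 0.368) and 1.74 (adjusted p = 0.0142) per the authors' deposited table. The dynein heavy chain gene che-3 differed by 0.69, and daf-19, the transcription factor gene that drives cilium genes, by 0.45. In total 3 of the 50 rose in the quadruple mutant and none in the double mutant. These are smaller shares than the 14.2% and 10.5% of all genes. The intraflagellar transport gene dyf-13 stood at -1.16 in mir-58 (adjusted p = 4.21e-03), -2.24 in the double (adjusted p = 9.14e-05) and -8.35 in the quadruple mutant (adjusted p = 2.21e-17) per the authors' deposited table. Its difference of -6.11 was the lowest of all genes. It lies on chromosome II, where none of the 3 deletions is labelled, and its 6 nearest listed neighbours differed by -0.28 to 0.55. Without dyf-13 the median of the list was 0.26.

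Histone genes were also higher. Of 32 listed, 25 were above 0, with a median of 0.21. The number that rose against wild type was 8 in the double, compared with 17 in the quadruple mutant. Over all genes the shares that rose were 10.5% and 14.2%. The highest, his-39 and his-63, at 1.55 and 1.23, had no call in either mutant and were named after their values were seen. Histone genes are near-identical copies. Cytosolic ribosomal protein genes had a median of 0.01 over 76 genes, yet 8 were at least 2-fold higher and 8 at least 2-fold lower. Subunits of the same ribosome thus stood at very different places. Per the authors' deposited table rpl-14 stood at -1.02 and -4.15 (adjusted p = 0.0764 and 3.23e-17). The values of rps-16 were -2.41 and -4.54 per the authors' deposited table (adjusted p = 3.50e-14, then 1.01e-29). At the other end rpl-31 stood at 0.21 and 2.88 per the authors' deposited table (adjusted p = 0.910, then 1.20e-13), and rps-19 and rpl-19 differed by 2.42 and 2.24. However, rpl-31 and rpl-19 already rose in mir-58, at 1.95 and 2.93 per the authors' deposited table. Their differences thus start from a lower value in the double mutant (0.21 and 1.32) than in mir-58. In mir-58 rpl-14 fell, at -1.83, while rps-19 (-0.24) and rps-16 (-0.32) had no call. The ribosomal stalk gene rla-1 stood at 2.73 (adjusted p = 5.09e-07) and -0.49 (adjusted p = 0.655) per the authors' deposited table, a difference of -3.22.

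Antimicrobial effector genes spread widely. Of 55 listed, 7 were at least 2-fold higher and 4 at least 2-fold lower, with a median of 0.13. The invertebrate-type lysozyme gene ilys-3 stood at 1.81 (adjusted p = 0.125) and 4.19 (adjusted p = 2.00e-10) per the authors' deposited table. The lysozyme gene lys-7 stood at 0.21 (adjusted p = 0.737) and 2.42 (adjusted p = 5.04e-19) per the authors' deposited table. In mir-58 lys-7 already rose, at 1.12 per the authors' deposited table, above its value in the double mutant. There ilys-3 stood at 1.55 without a call. The antibacterial factor gene abf-4 differed by 2.28, the lysozyme gene lys-10 by 1.43, and the thaumatin-like genes thn-1, thn-3 and thn-2, which are neighbours on chromosome IV, by 1.72, 1.43 and 1.74. On the lower side were the saposin-like gene spp-19 (-1.90) and T24B8.5, a gene controlled by the p38 pathway (-1.34), both lower than wild type by call in the quadruple mutant. T24B8.5 already fell in the double mutant (-1.78) and in mir-58 (-2.39) per the authors' deposited table, while spp-19 had a call in neither. Among genes of insulin signalling and its outputs, dod-3, which the transcription factor DAF-16 controls, stood at 0.83 (adjusted p = 0.134) and 3.02 (adjusted p = 3.49e-22) per the authors' deposited table. In mir-58 dod-3 rose too, at 1.00 per the authors' deposited table, while ins-7 (-0.80) had no call. The insulin-like peptide gene ins-7 stood at 0.06 and 1.97 per the authors' deposited table (adjusted p = 1.14e-04 in the latter), while daf-2 and daf-16 themselves differed by 0.00 and -0.02. The cytochrome P450 gene cyp-13A5 differed by 1.54.

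The most extreme genes among those called in either mutant were mainly called in the quadruple mutant alone at the higher end. The choice itself favours this pattern, since called genes were ranked by the quadruple minus the double value. C02E7.10 led with 1.44 (adjusted p = 0.789) and 7.09 (adjusted p = 1.38e-20) per the authors' deposited table. B0563.9 followed with 2.77 (adjusted p = 0.209) and 7.28 (adjusted p = 6.62e-16) per the authors' deposited table. These genes have no role annotated in the sources used here. The sodium/proton exchanger gene nhx-6 stood at 0.77 (adjusted p = 0.910) and 4.72 (adjusted p = 6.24e-07) per the authors' deposited table. The remaining higher genes were srt-63, a chemoreceptor gene (4.26), B0238.13 (3.94), glr-7, F20D6.2 (3.06), W02D7.11 (3.02), T28A11.19 (2.96), C24G7.1 (2.89), B0205.14 (2.87), C24A8.5 (2.86), Y105C5A.13 (2.74), rpl-31 (2.67) and scl-24 (2.65). C24G7.1, annotated as the channel gene delm-2, alone of the 15 was called in the double mutant as well, and rpl-31 also rose in mir-58.

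At the lower end, genes that rose in the double mutant and lost their call stood beside genes that fell in the quadruple mutant. The same ranking favours both kinds. The glucuronosyltransferase gene ugt-35 stood at 4.41 (adjusted p = 1.79e-04) and 1.54 (adjusted p = 0.517) per the authors' deposited table, and Y22D7AR.10 and C08F11.7 differed by -2.91 and -2.61 in the same way. The gene tag-293 kept a call, at 5.46 (adjusted p = 2.17e-40) and 3.04 (adjusted p = 5.12e-07) per the authors' deposited table. Of the others, sre-5, a chemoreceptor gene (-3.08), C36C5.14 (-2.84), C36C5.15 (-2.69), C36C5.5 (-2.60) and fipr-13 (-2.28) fell in the quadruple mutant and had no call in the double mutant. No gene rose in 1 of the mutants and fell in the other.

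Some of the large differences sat side by side in the genome. With runs of at least 3 adjacent listed genes all past 2-fold in 1 direction, a search made after the values were seen, 19 runs were found. The 4 genes C36C5.5, C36C5.12, C36C5.14 and C36C5.15 on chromosome V stood at -0.49 to 0.26 in the double and -2.93 to -2.43 in the quadruple mutant per the authors' deposited table, and all 4 fell in the latter. On chromosome I the sodium channel family genes C24G7.4, C24G7.2 and C24G7.1 differed by 1.67, 1.46 and 2.89, and all 3 rose in the quadruple mutant. The longest run, 5 genes from T26H5.10 to srw-33 on chromosome V, differed by 1.04 to 2.51. F49C12.2, F49C12.4 and F49C12.5 on chromosome IV were high in both mutants but less so in the quadruple mutant, at 3.70 to 5.90 and 1.91 to 4.26 per the authors' deposited table. Where neighbours overlap, reads could have been counted for either gene.

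Of 107 gene families by name prefix with at least 10 listed members, the nspc family of short secreted peptides had the lowest median difference, -0.80. Of its 10 genes 5 were at least 2-fold lower, and the number that fell against wild type was 0 in the double, compared with 6 in the quadruple mutant. Over all genes 10.5% rose and 5.86% fell in the double mutant, and 14.2% rose and 9.82% fell in the quadruple one. The value of nspc-18 was -0.21 and -2.31 per the authors' deposited table (adjusted p = 0.843, then 1.11e-05). These genes are close copies of each other. The sodium/calcium exchanger family ncx (-0.38, 10 genes), the chemoreceptor family sra (-0.31, 16 genes), the aldehyde dehydrogenase family alh (-0.26, 11 genes), the acyl-CoA dehydrogenase family acdh (-0.23, 13 genes) and the translation initiation factor family eif (-0.20, 11 genes) came next. All 11 eif genes were below 0, and the number that fell was 1 in the double, compared with 7 in the quadruple mutant. The highest medians were those of the lipase family lips (0.52, 14 genes), the chemoreceptor families srab (0.46, 12 genes), srz (0.38, 13 genes) and srw (0.36, 29 genes), the chitinase-like family chil (0.40, 14 genes) and scl (0.38, 13 genes). Of the 14 lips genes 5 were at least 2-fold higher. Against wild type, 3 lips genes fell and 0 rose in the double mutant, and 2 fell and 1 rose in the quadruple one. The gene that rose, lips-5, stood at 0.48 and 1.28 per the authors' deposited table (adjusted p = 0.468, then 7.32e-04). Of those past 2-fold, lips-6 alone was called, at -1.59 in the double (adjusted p = 3.94e-03) and -0.33 in the quadruple mutant (adjusted p = 0.736) per the authors' deposited table, and lips-3, which fell in both mutants, differed by -0.09. Chemoreceptor genes were seldom called, with 1 of 29 srw, 1 of 13 srz, 0 of 12 srab and 0 of 16 sra genes called in either mutant. Of all genes 25.2% were called in either mutant.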

How the data were processed

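RNA sequencing of whole late L4 animals was analysed from the authors' own comparisons. Per the file headers, the deposited table holds log2 fold changes and adjusted p-values for 3 mutants, each against wild type. The submitters' processing notes name DESeq with no version. Not given in the sources used here are the aligner, counting program, genome build and adjustment method. The difference (quadruple minus double log2 fold change) was computed for all 16309 genes. It has no test. The computation was tested on simulated data.

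Names were matched to Ensembl release 115 of WBcel235: 15602 matched, 707 did not, and 20 names shared a gene. List members missing by name were matched through this annotation (106).

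Members, the 45 lists and families were chosen with earlier results of these data known. Genes named were those at the microRNA loci, all reported targets, the 15 highest and 15 lowest differences among called genes, up to 3 called members at each end of each list and up to 2 in the 6 highest and 6 lowest families. Other genes are given as further members of a list or as named with their values known. Alternatives were folds of 1.5 and 4, called genes alone (adjusted p under 0.05 or 0.01), centring on the median and the mean in place of the median. Python 3.11.15, numpy 2.4.6, pandas 2.3.3 and matplotlib 3.10.9 were used.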

Additional observations from a re-analysis of the deposited data

How the results depend on the processing

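With a fold of 1.5 in place of 2, 1382 genes were higher and 816 lower in the quadruple mutant, and with a fold of 4, 100 and 61. Among genes with an adjusted p under 0.05 in the authors' deposited table for either mutant, 210 were at least 2-fold higher and 136 lower, and with an adjusted p under 0.01, 168 and 110. Fewer genes are counted in these by construction. Subtracting the median of all genes left 612 and 345, which was fixed in advance because that median is 0.00. Over called members alone the median of the male list, at -0.16 over 11 genes, was 0.52 and rested on 1 gene. With called members alone 23 other list medians moved by at least 0.1 and 19 did not. Examples are neurons, from -0.01 to 0.35, vulva, from -0.04 to 0.28, reported targets, from 0.23 to 0.68, and cuticle collagens, from -0.19 to -0.45. When the mean replaced the median, 8 of the 45 moved and 37 did not.

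No paired analysis was possible because the deposited columns hold comparisons and no values per sample. The replicate block and the fits leaving out each replicate were not run for the same reason. The differences therefore carry no error, and depth is unknown. Counts of calls in the double and the quadruple mutant share wild-type samples, and a call in 1 mutant alone does not show that the mutants differ. Genotype and time of collection cannot be told apart, nor can loss of mir-81 and mir-82 and the changes in T07D1.2 and glr-7.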

Other observations

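Some families outside the lists were chosen after their values were seen, and no test was made of them. Of 24 listed pals genes, a family known from the response to intracellular pathogens, 22 were above 0, with a median difference of 0.46, and the number that rose against wild type was 11 in the double, compared with 14 in the quadruple mutant. The highest were pals-9 (listed as C17H1.10) at 1.96, pals-31 (F48G7.2) at 1.25 and pals-32 (C31B8.4) at 1.03. Per the authors' deposited table pals-14 (F22G12.1) stood at 3.02 and 3.97 (adjusted p = 1.10e-05 and 2.92e-12), while the regulators pals-22 (C29F9.1) and pals-25 (T17A3.2) differed by 0.15 and 0.09. The F-box family fbxa had 151 listed genes, of which 12 were at least 2-fold higher and 0 at least 2-fold lower, with a median of 0.18. The number of fbxa genes that rose was 25 in the double, compared with 42 in the quadruple mutant. As a background for the counts of both families, 10.5% of all genes rose in the double mutant and 14.2% did so in the quadruple one. Part of each increase could thus follow that of all genes, which was not tested.

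Neuropeptide genes were higher by small amounts in the quadruple than in the double mutant. Of 27 flp genes 26 were above 0, with a median of 0.21 and none past 2-fold, and 1 rose in each mutant. Of 42 nlp genes 34 were above 0, with a median of 0.18. Against wild type, 0 nlp genes rose and 5 fell in the double mutant, and 3 rose and 7 fell in the quadruple one. More nlp genes thus fell than rose against wild type in each mutant. Of all genes 10.5% rose and 5.86% fell in the double mutant, and 14.2% rose and 9.82% fell in the quadruple one. Nuclear hormone receptor genes of the nhr family, 229 in all, had a median of 0.15. The number of nhr genes that rose was 11 in the double, compared with 43 in the quadruple mutant. Over all genes the shares that rose were 10.5% and 14.2%. The nspb family, 8 genes, had a median of -0.53, with 3 at least 2-fold lower. C-type lectin genes were split, with 18 of 163 at least 2-fold higher and 17 at least 2-fold lower. The tubulin gene tbb-6 stood at 1.66 and 4.30 per the authors' deposited table (adjusted p = 4.89e-05, then 2.52e-47).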
